A study of Mus musculus with 9 samples.

Results

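Rab proteins are small GTPases that sit on intracellular membranes and direct vesicle traffic. They were followed here through the maturation of cultured mouse megakaryocytes, the marrow cells that make platelets. Members were the probe sets of the deposited value table whose only gene symbol was Rab, a number and at most 1 further letter, with Rab27a and Rab27b left out. This gave 90 of 22690 probe sets, for 48 of the 12394 genes that had a probe set of their own.

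The study hybridised RNA from flow-sorted primary mouse megakaryocytes to Affymetrix MOE430A oligonucleotide arrays. The cells came from marrow or fetal liver grown with thrombopoietin and were selected by surface CD41 and by size. The 4 stages were MKP (2 arrays), which is the progenitor stage and has no day in its label, MK3 (day 3, 2 arrays), MK4 (day 4, 2 arrays) and MK6 (day 6, 3 arrays). Thrombopoietin is the only added agent named, and no genotype or agent is said to differ between the groups. Strain, animal age and the tissue behind each array are left unstated by the labels. Sorted populations were enriched and not pure. Whether replicate arrays stand for separate cultures is not stated in the labels, so a p-value here reflects only the spread between these arrays, which may be technical.

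A Rab protein is inactive when bound to GDP and active when bound to GTP. Exchange factors switch it on, GTPase-activating proteins switch it off, the GDI and escort proteins carry it in the cytosol, and effectors such as tethers and motors act on the membrane that the active form marks. Different Rabs mark early endosomes, recycling endosomes, late endosomes and lysosomes, the ER and Golgi, or secretory granules. Megakaryocytes load granules and build an internal membrane system before they release platelets, and several Rabs are known for roles in platelet granules.

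Signals were set to a common trimmed mean and compared as log2(signal + 15.2), with signals in arbitrary units of array brightness. Trimmed means before scaling ran from 102 to 221 over the 9 arrays, lowest on MK6 replicates 1 and 3. Across probe sets, arrays of a stage correlated at 0.836 to 0.968 (6 pairs) and arrays of different stages at 0.746 to 0.955 (30 pairs), so stages were not cleanly apart. The 3'/5' signal ratio of beta-actin, which goes up when RNA is degraded, lay between 0.957 and 1.09 before day 6. MK6 replicates 1, 2 and 3 gave 1.49, 1.33 and 3.21. The same ratio of Gapdh lay between 0.805 and 0.970 before day 6, and these MK6 arrays gave 0.996, 1.13 and 3.27. Replicate 3 thus stood out on both controls, and replicates 1 and 2 less so, most of all on Gapdh. All 9 megakaryocyte markers on the array were measured, and their summed signal was 9249 to 9807 in MKP and 17041 to 20013 in MK6. From MKP to MK6, 2 of them were called higher. The sum was 9655 and 20796 on MK3 replicates 1 and 2, so the MK3 arrays were not alike, and 17507 to 21417 in MK4. The 10 neutrophil markers summed to 38596 to 47413 in MKP and 6559 to 28899 in MK6, and 5 of them fell. The 10 macrophage markers summed to 8292 to 10585 in MKP, 13693 to 24121 in MK3 and 8196 to 18924 in MK6, and 2 of them rose from MKP to MK6. The 6 hepatocyte markers summed to 610 to 617 in MKP, 3032 to 3905 in MK3 and 123 to 353 in MK6, and 1 fell. The 6 mast cell and basophil markers summed to 835 to 1084 in MKP and 482 to 589 in MK6, and 1 fell. The 2 erythroid markers measured and the 2 lymphocyte markers measured were not called. The lymphocyte markers Cd3e, Cd3g and Cd2 were under the filter on every array. The part of these other cells in the Rab values was not tested, and in bulk RNA fewer cells of a type cannot be told apart from less RNA per cell.

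The first comparison asks which Rab genes differ between the progenitor stage and day 6. Of the 48 Rab genes, 40 passed the filter on low signals, and 1 of these 40 (2.5%), Rab14, rose at an adjusted p below 0.05. None fell. Over all 9398 genes tested 5.69% were called, 2.76% higher and 2.94% lower. With 1 of 40 called, the Rab share cannot be told apart from this background. The 40 log2 differences ran from -0.78 to 1.12, with 25 above 0 and 15 below. Their median was 0.27 against 0.13 over all genes tested, and their median absolute difference was 0.40 against 0.41. A difference beyond 1 on the log2 scale was found for 3 Rab genes (7.5%), against 12.3% of all genes.

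Looser measures gave larger counts on the higher side. All MK6 arrays lay above all MKP arrays for 18 Rab genes (45%), against 24.5% of all genes, and below them for 4 (10%), against 18.8%. The 4 were Rab1b, Rab3d, Rab4b and Rab8a. At an unadjusted p under 0.05, 10 Rab genes (25%) were higher, against 12.7% of all genes, and 2 (5%), Rab24 and Rab8a, were lower, against 11.1%. The median of all genes was itself above 0 under this scaling. Under a common median it was 0.0051, and that of the Rab genes was 0.16. The median Rab level on an array was 7.77 and 7.91 (log2) in MKP and 8.22, 7.84 and 8.01 in MK6, so the stages overlap.

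**Figure D1:**
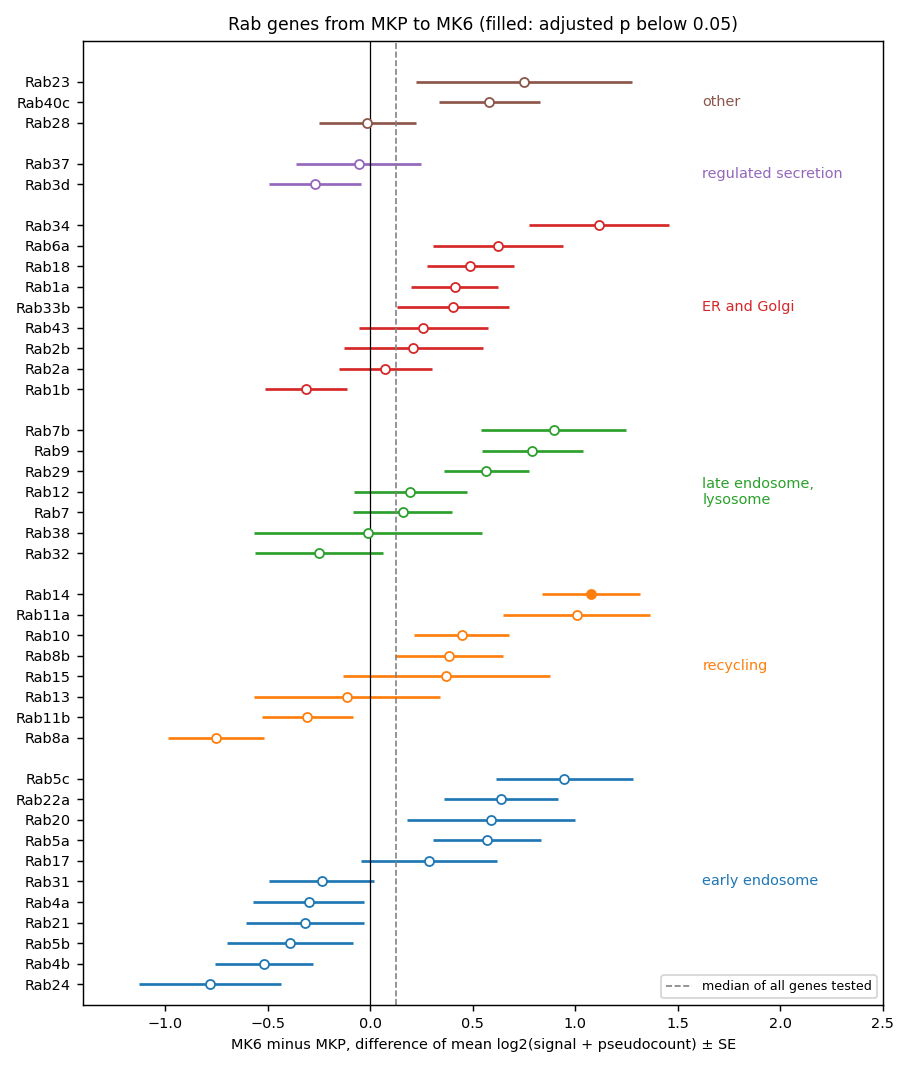
Difference of the mean log2(signal + pseudocount), MK6 minus MKP, for each of the 40 Rab genes tested, grouped by membrane role, with bars of 1 standard error and a dashed line at the median of all genes tested, 0.13. The filled point, Rab14 at 1.08, is the single gene below an adjusted p of 0.05, and the other 39 points are open.

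Recycling endosome and exocytic Rabs (8 of 9 genes tested) had a median difference of 0.38, and 1 rose. Rab14 works between the trans-Golgi network and early and recycling endosomes. Its signal was 327 and 435 in MKP, 521 and 586 in MK3, 482 and 477 in MK4, and 666, 804 and 1001 in MK6. Every MK6 array lay above every array of the other stages. The log2 difference MK6 minus MKP was 1.08 ± 0.24 (SE, 3 against 2 arrays), a fold of 2.11, with an adjusted p of 0.029.

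This call rested on 1 of Rab14's 5 measured probe sets and on few arrays. The other 4 gave differences of 0.64, 0.045, 0.23 and 0.24, none of them called, and the mean of the 5 gave 0.45 with an adjusted p of 0.17. The probe set used carries the suffix _s_at, which Affymetrix gives to probes that can match more than 1 transcript. Rab14 was called in 19 of 33 alternatives, and among the others the call was lost without MKP replicate 1 (0.88, adjusted p 0.30), without MKP replicate 2 (1.27, 0.14), without MK6 replicate 3 (0.93, 0.084), under a common median (0.95, 0.13), and when the fit took in the beta-actin ratio (0.74, 0.49). Few genes of any kind were called without MKP replicate 1 (0.0319%), without MKP replicate 2 (0.223%) or with the beta-actin ratio (0%). Those losses are thus not particular to Rab14. The beta-actin ratio was higher on every MK6 array than on any other, so that fit can hardly tell it apart from the stage. Of the alternatives that kept the call, those without an MK3 or MK4 array left the difference itself at 1.08. MK6 replicate 3 held both the highest Rab14 signal and the highest beta-actin ratio.

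Rab11a, the main Rab of the recycling endosome, gave 726 and 676 in MKP, 636 and 1371 in MK3, 1315 and 1093 in MK4, and 932, 1819 and 1693 in MK6. The MK6 arrays were all above the MKP arrays, but the lowest of them was below both MK4 arrays. The difference was 1.01 ± 0.36 with an adjusted p of 0.12, and it did not pass the test. Rab8a carries cargo from the trans-Golgi network to the plasma membrane. It gave 835 and 910 in MKP, 878 and 903 in MK3, 808 and 970 in MK4, and 573, 582 and 401 in MK6. All 3 MK6 arrays were below the 6 others, and the difference was -0.75 ± 0.23 with an adjusted p of 0.087. Rab10, another exocytic Rab, gave 0.45, Rab8b 0.38, Rab15 0.37, Rab13 -0.11 and Rab11b -0.31.

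The sequences before the starts of Rab14, Rab8a and Rab8b are shown because Rab14 is the gene called and the Rab8a to Rab8b ratio changed without overlap of the arrays. They are the 250 bases upstream of a RefSeq start on GRCm38.p6, read 5′ to 3′ on the gene's strand, at chr2:35201121-35201370 on the minus strand, chr8:72160950-72161199 on the plus strand and chr9:66919706-66919955 on the minus strand. Capitals mark matches to CCAAT, which reads as ATTGG on the other strand, and to the word CCGGAAG, which then reads as CTTCCGG.
Rab14: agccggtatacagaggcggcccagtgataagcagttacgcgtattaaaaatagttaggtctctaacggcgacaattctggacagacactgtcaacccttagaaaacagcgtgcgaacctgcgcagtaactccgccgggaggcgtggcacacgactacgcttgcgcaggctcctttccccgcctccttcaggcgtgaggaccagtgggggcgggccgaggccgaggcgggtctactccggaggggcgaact
Rab8a: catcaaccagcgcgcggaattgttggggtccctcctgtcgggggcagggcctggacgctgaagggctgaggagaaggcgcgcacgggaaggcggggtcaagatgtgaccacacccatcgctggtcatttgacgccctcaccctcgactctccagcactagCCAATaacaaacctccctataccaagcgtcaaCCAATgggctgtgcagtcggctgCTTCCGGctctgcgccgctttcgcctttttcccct
Rab8b: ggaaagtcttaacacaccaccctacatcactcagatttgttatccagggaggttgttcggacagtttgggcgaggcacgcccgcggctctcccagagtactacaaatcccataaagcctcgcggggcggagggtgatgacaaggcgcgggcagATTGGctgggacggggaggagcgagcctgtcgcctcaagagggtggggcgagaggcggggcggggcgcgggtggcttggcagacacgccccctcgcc

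All 3 windows are rich in CG pairs, with 23 in Rab14, 18 in Rab8a and 20 in Rab8b. The 52 RefSeq windows found for 41 Rab genes had a median of 15.5 CG pairs and 60.2% GC, against 6 and 52.4% over 32851 windows of the same length. Of 6 motifs searched on both strands, none of which contains another, CCAAT was in 21 Rab windows (40.4%, against 33.8% of all windows) and CACGTG in 4 (7.69%, against 6.02%). CCGGAAG was in 3 (5.77%, against 6.91%). AGATAA was in 2 (3.85%, against 9.99%), as was TATAAA (against 12.4%) and likewise TGAGTCA (against 4.46%). The Rab14 window held none of the 6, which says only that these letters are not in those bases.

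Early endosome Rabs (11 of 11 genes tested) had a median difference of -0.24, with 5 above 0, 6 below and none called. This median is the value of Rab31, and the next value above it is 0.28 (Rab17). Its sign therefore depends on which genes are placed in the group, such as Rab24, which is linked to autophagy. Rab5c, which drives early endosome fusion, gave 398 and 395 in MKP, 463 and 962 in MK3, 582 and 897 in MK4, and 1008, 777 and 602 in MK6. Its 2 MKP arrays nearly coincide and all later arrays are above them. The difference was 0.95 ± 0.34 with an adjusted p of 0.12. Rab5b, of the same function, gave 128 and 87.3 in MKP, 102 and 63.7 in MK3, 93.2 and 88.5 in MK4, and 108, 60.8 and 68.3 in MK6. The stages overlap, and the difference was -0.39 ± 0.31 with an adjusted p of 0.45.

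Rab4b, a Rab of fast recycling from early endosomes, gave 265 and 203 in MKP, 269 and 264 in MK3, 259 and 225 in MK4, and 156, 195 and 128 in MK6. Its MK6 arrays were below all others, with a difference of -0.52 ± 0.24 and an adjusted p of 0.22. Rab24, an unusual Rab linked to autophagy, gave 173 and 343 in MKP, 186 and 255 in MK3, 193 and 260 in MK4, and 155, 178 and 89.2 in MK6. The 2 MKP arrays lie further apart than the stage means, and the difference of -0.78 ± 0.35 had an adjusted p of 0.20. Rab21, which carries integrins, gave 224 and 331 in MKP, 220 and 274 in MK3, 163 and 234 in MK4, and 166, 212 and 285 in MK6. Its stages overlap, with a difference of -0.32 ± 0.29 and an adjusted p of 0.51. Of the others, Rab22a gave 0.64, Rab20 0.59, Rab5a 0.57, Rab17 0.28, Rab31 -0.24 and Rab4a -0.30. Rab20 was under the filter on both MKP arrays.

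Late endosome and lysosome Rabs (7 of 7 tested) had a median of 0.19, and none was called. Rab7b, a relative of the late endosomal Rab7, gave 97.8 and 126 in MKP, 317 and 259 in MK3, 161 and 313 in MK4, and 331, 143 and 220 in MK6. Every later array was above both MKP arrays. In MK3, MK4 and MK6 the array highest in Rab7b was also highest in the macrophage marker sum, while in MKP it was not. A link was not tested. MK6 minus MKP was 0.89 ± 0.35 with an adjusted p of 0.16, and MK3 minus MKP was 1.26 ± 0.39 with an adjusted p of 0.25. Rab9, which returns mannose 6-phosphate receptors from late endosomes to the Golgi, gave 281 and 390 in MKP, 303 and 408 in MK3, 376 and 393 in MK4, and 545, 514 and 709 in MK6. All MK6 arrays were above the 6 others, with a difference of 0.79 ± 0.25 and an adjusted p of 0.088. Rab29, a Rab of the trans-Golgi and lysosome, gave 0.57, Rab12 0.19 and Rab7 0.16.

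Rab32 and Rab38 help build lysosome-related organelles, the class to which platelet dense granules belong. Rab32 gave a difference of -0.25 ± 0.31. Rab38 gave 664 and 652 in MKP, 252 and 509 in MK3, 520 and 423 in MK4, and 234, 991 and 1173 in MK6. The low MK6 value was on replicate 1, which was also the MK6 array with the highest macrophage marker sum, 18924 against 8760 and 8196. The difference of -0.012 ± 0.56 (adjusted p 0.99) turned with the MK6 arrays used. Leaving out MK6 replicate 1 gave 0.70 (adjusted p 0.19), against -1.44 with MK6 replicate 1 as the only MK6 array. That last fit takes its spread from the other stages alone, so only its difference is given.

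ER and Golgi Rabs (9 of 12 tested) had a median of 0.40, with 8 above 0 and 1 below, and none was called. Rab34, which positions lysosomes from the Golgi side, gave 48.1 and 70.8 in MKP, 95.8 and 75.0 in MK3, 77.6 and 127 in MK4, and 220, 99.3 and 136 in MK6. The MK6 arrays were above the MKP arrays and overlapped MK4. The difference was 1.12 ± 0.34 with an adjusted p of 0.085. Rab1b, which carries cargo from ER to Golgi, gave 429 and 409 in MKP, 558 and 484 in MK3, 461 and 416 in MK4, and 332, 332 and 338 in MK6. The MK6 arrays lay within a few units of each other and below all others, with a difference of -0.31 ± 0.20 and an adjusted p of 0.35. Rab6a, of Golgi traffic, gave 0.62, Rab18, known from lipid droplets, 0.49, Rab1a 0.41, Rab33b 0.40, Rab43 0.26, Rab2b 0.21 and Rab2a 0.072.

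Regulated secretion was thinly measured, with 2 of 5 genes tested. Rab3d, a Rab of secretory granules, gave -0.27, and Rab37, known from mast cell granules, gave -0.058. The remaining Rabs tested were Rab23 at 0.75 ± 0.53, Rab40c at 0.58 and Rab28 at -0.016. Rab23, a regulator of Hedgehog signalling, had MKP signals of 5.10 and 54.9, and the first lies far under the filter. The 8 genes not tested were Rab3a, Rab3b, Rab3c, Rab6b, Rab25, Rab30, Rab33a and Rab40b. Their signals ran from 1.21 to 62.5 and none passed 46.7 on more than 1 array.

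**Figure D2:**
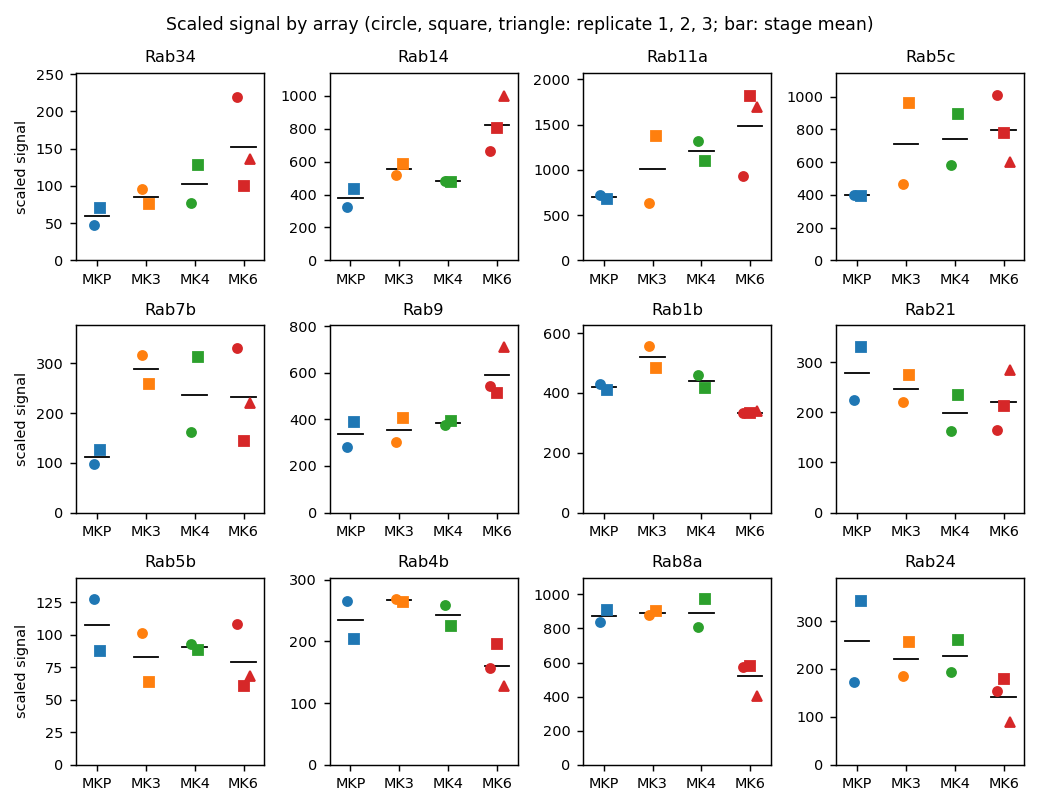
Scaled signal on each of the 9 arrays, with linear axes from 0, for the 6 Rab genes with the largest rises and the 6 with the largest falls from MKP to MK6, by stage, with a bar at the stage mean. Rab14 and Rab9 have all MK6 arrays above all others and Rab1b, Rab4b and Rab8a have them below, while Rab21 and Rab5b overlap throughout.

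Probe sets of the same Rab gene often disagreed. Of the 40 genes tested, 21 had more than 1 measured probe set, and in 6 of them (Rab3d, Rab7, Rab10, Rab17, Rab18 and Rab21) the differences MK6 minus MKP had both signs. The span between the lowest and highest was 0.040 to 1.58, with a median of 0.46. Rab18 held the widest, from -1.10 to 0.49, and its lower probe set read 156 and 233 in MKP and 128, 139 and 25.5 in MK6. The low value was on MK6 replicate 3. Rab3d ran from -0.27 to 1.03 over 4 probe sets and Rab11a from 0.18 to 1.01 over 2. Rab34 (1.12 and 1.22), Rab7b (0.89 and 0.96), Rab24 (-0.78 and -0.91) and Rab1a (0.41 and 0.45) were alike across both of their probe sets. With each of 14523 probe sets tested on its own, 1004 (6.91%) were called, and 1 of the 71 measured Rab probe sets was among them.

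**Figure D3:**
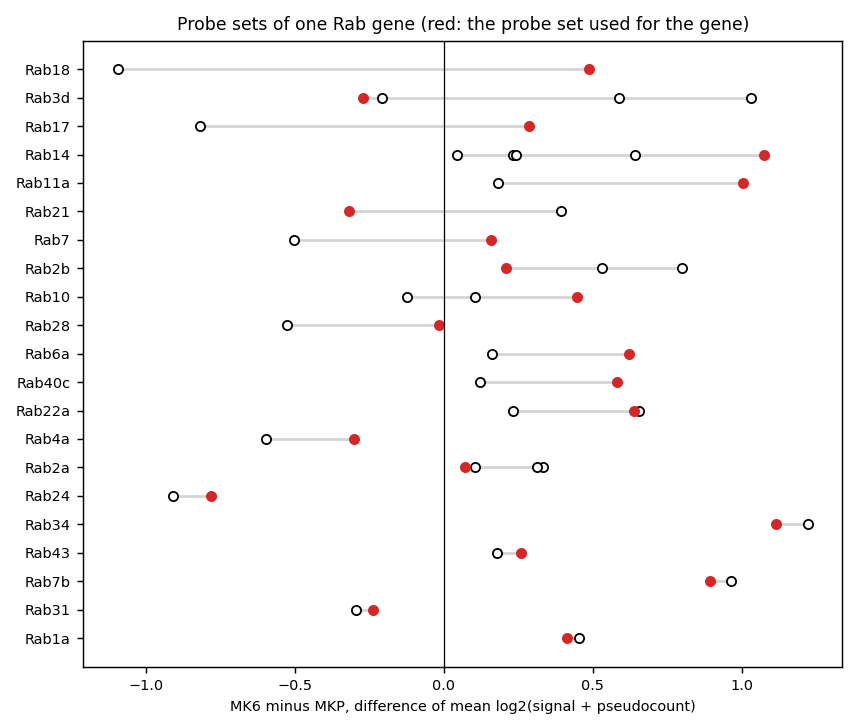
Difference MK6 minus MKP, log2(signal + pseudocount), for every measured probe set of the 21 Rab genes with more than 1, joined by a line, with the probe set used for the gene in red. Rab18, Rab3d, Rab17, Rab21, Rab7 and Rab10 cross 0, and the red point of Rab14 at 1.08 lies above the gene's other 4.

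Rab genes that share a number encode close relatives, and their ratio on the same array does not move with array scaling apart from the pseudocount. These 9 pairs were set side by side with their values known. The log2 ratio of the MK6 arrays did not overlap that of the MKP arrays in 5 pairs, higher in 2 and lower in 3. This count largely restates the single genes. In Rab1a to Rab1b and Rab8a to Rab8b both members already lay apart in opposite directions, so these ratios could not overlap. Rab11a, Rab5c and Rab7b, from the remaining pairs, were also among the 18 genes higher without overlap. Over single genes, a different measure, 24.5% were higher and 18.8% lower without overlap. The share over ratios of other gene pairs was not computed. The log2 ratio is given next for each of these pairs. The ratio went up by 0.73 for Rab1a to Rab1b, from 1.45 and 1.71 to 2.32, 2.24 and 2.34. For Rab11a to Rab11b it went up by 1.31, from 0.53 and 0.44 to 1.24, 1.84 and 2.31. It changed by -1.14 for Rab8a to Rab8b, from 0.18 and -0.12 to -0.86, -1.14 and -1.31. For Rab5b to Rab5c the change was -1.34, from -1.54 and -2.002 to -3.05, -3.38 and -2.89. For Rab7 to Rab7b it was -0.74, and the closest MKP and MK6 arrays there were 2.98 and 2.97.

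The level of a ratio has no meaning across different probe sets, and the levels are printed only to show the spread of the arrays behind each change. A change in the ratio does not say which member moved, and it rests on the probe sets used: Rab11a's other probe set gave a difference of 0.18 where the one used gave 1.01, and Rab7's other gave -0.50 where the one used gave 0.16. The other 4 pairs overlapped, at 0.96 for Rab5a to Rab5b, 0.22 for Rab4a to Rab4b, -0.14 for Rab2a to Rab2b and -0.38 for Rab5a to Rab5c. The pairs were not tested.

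**Figure D4:**
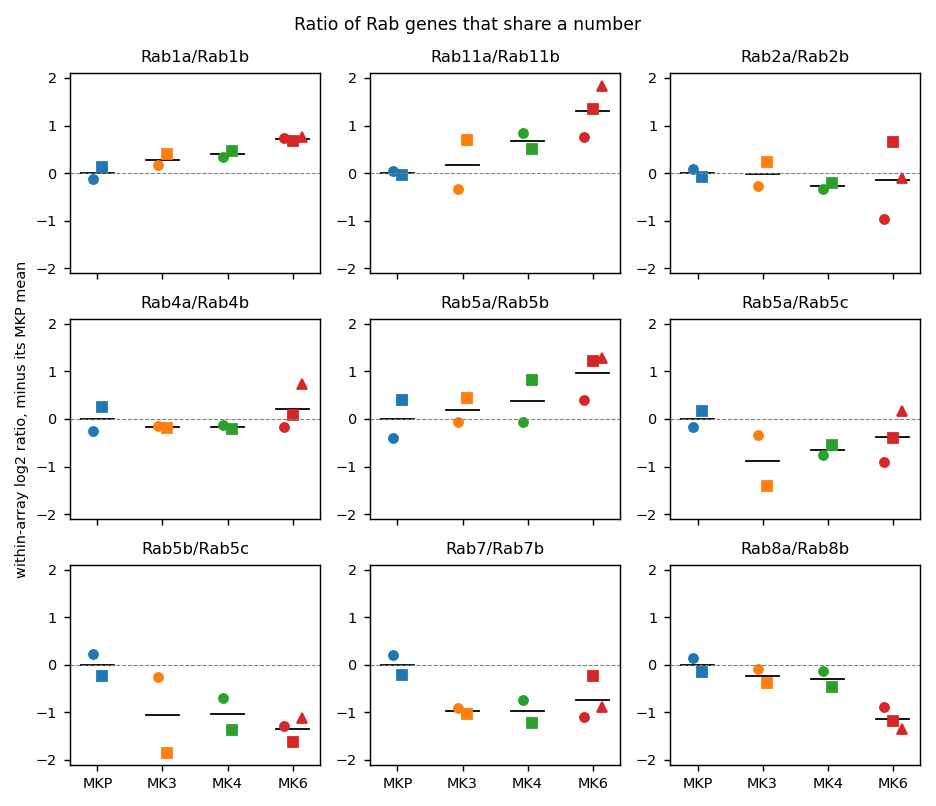
Within-array log2 ratio of 9 pairs of Rab genes that share a number, minus the pair's MKP mean, on each of the 9 arrays, with circle, square and triangle for replicates 1, 2 and 3 and a bar at the stage mean. Rab1a/Rab1b and Rab11a/Rab11b end above their MKP arrays, Rab8a/Rab8b, Rab5b/Rab5c and Rab7/Rab7b below them, and the other 4 overlap.

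The steps compare neighbouring stages, and limma called no Rab gene at any of them. MKP has no day in its label and the tissue behind each array is unstated. Time in culture thus cannot be told apart from tissue at these steps. From MKP to MK3 the median Rab difference was 0.15 against -0.039 for all genes. At an unadjusted p under 0.05, 3 Rab genes passed (7.5%, against 9.91% of all genes), and these were Rab7b, Rab29 at 0.70 ± 0.23 and Rab1a at 0.59 ± 0.23. All 3 were higher in MK3. Over all genes, 0.0532% were called at this step. From MK3 to MK4 the medians were 0.015 and 0.049, with 0 Rab genes at an unadjusted p under 0.05 against 3.59%, and 0.0106% of all genes called.

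From MK4 to MK6 the medians were 0.12 and 0.089, and 4 Rab genes (10%, against 10.5%) passed the unadjusted threshold. Rab14 at 0.74 ± 0.24 and Rab9 at 0.58 ± 0.25 were higher in MK6, and Rab8a at -0.77 ± 0.23 and Rab4b at -0.57 ± 0.24 were lower. Over all genes 0.0213% were called here. A moderated F test over the 3 steps called 2.79% of all genes and 0 Rab genes, with 8 (20%) at an unadjusted p under 0.05 against 17.1%. The comparisons share arrays, so their values are not independent of each other.

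The regulators and effectors of Rab proteins were taken from a list of 169 genes, of which 105 were on the array and 95 passed the filter. The classes are those of the list, and whether each member acts directly on a Rab was not checked. From MKP to MK6, 5 of the 95 rose (5.26%, against 2.76% of all genes) and 0 fell (against 2.94%), with a median of 0.23. In both directions together that is 5.26% against 5.69%. The 5 became 0 without MKP replicate 1, MKP replicate 2 or MK6 replicate 3, where 0.0319%, 0.223% and 1.56% of all genes were called. Without MK4 replicate 1 or 2 only Ehd1 was left, beside 4.14% and 4.16% of all genes. At the 3 steps and in the F test limma called none of the 95. The GDI, escort and prenylation class (11 tested) had a median of 0.11 and none called. Its largest differences were Icmt at 0.34, Gdi2, which extracts Rabs from membranes, at 0.33, and Rabggta, a subunit of the enzyme that attaches the lipid anchor, at -0.31. The probe sets of Gdi2 ran from -1.35 to 0.59.

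Exchange factors (27 tested) had a median of 0.14, and 2 rose. Trappc2, a subunit of the TRAPP complex, gave 115 and 190 in MKP and 359, 437 and 415 in MK6, a difference of 1.35 ± 0.35 with an adjusted p of 0.049. Dennd4c, of the DENN-domain exchange factors, gave 74.7 and 103 in MKP and 143, 224 and 220 in MK6, a difference of 1.01 ± 0.26 with an adjusted p of 0.048. Both lie just inside the threshold. Hps1, part of the complex that activates Rab32 and Rab38, gave 121 and 80.6 in MKP and 12.6, 32.1 and 65.9 in MK6, a difference of -1.27 ± 0.43 that did not pass (adjusted p 0.11).

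GTPase-activating proteins (15 tested) had a median of 0.23, and 1 rose. Rabgap1 gave 151 and 161 in MKP and 300, 278 and 301 in MK6, a difference of 0.84 ± 0.21 with an adjusted p of 0.043. Its relative Rabgap1l gave 1.24 ± 0.37 (adjusted p 0.078) on the probe set used and -0.21 on its other one, and Tbc1d22a gave 0.62 and 0.32. Genes listed as effectors (42 tested) had a median of 0.32, and 2 rose. Ehd1, which shapes recycling endosome tubules, gave 191 and 161 in MKP, 266 and 286 in MK3, 369 and 371 in MK4, and 333, 428 and 505 in MK6. Its difference was 1.18 ± 0.23 with an adjusted p of 0.018, while its other 3 probe sets gave 0.92, 0.75 and 0.63, none called. Fyco1, which links Rab7 membranes to kinesin, gave 129 and 118 in MKP and 240, 254 and 256 in MK6, a difference of 0.94 ± 0.24 with an adjusted p of 0.043. Sytl4, a granule effector, at 1.21 ± 0.44 and Kif20a, a mitotic kinesin that binds Rab6, at -1.003 ± 0.31 did not pass.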

How the data were processed

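The deposited table holds 1 linear signal intensity per probe set and array, which the submitters' processing notes credit to MAS5. Here each array was scaled to a 2% trimmed mean of 161. Probe sets above 46.7 (40th percentile) on at least 2 arrays were kept, and of a gene's kept probe sets the one with the highest mean log2(signal + 15.2) was used. Symbols came from the platform annotation, updated through RefSeq gene IDs: 20393 probe sets named 1 gene, 691 several and 1542, with 64 controls, none. limma 3.58.1 in R 4.3.3 fitted 1 mean per stage to all 9 arrays (lmFit, eBayes with trend, 5 residual degrees of freedom), with Benjamini-Hochberg adjustment over 9398 genes and a threshold of 0.05. Replicates are numbered in accession order. Differences are given for every Rab gene tested. Signals by array are given for the Rab gene called and the 6 largest rises and falls, and, chosen after their values were seen, for Rab38 and in part Rab23 and Rab18. Regulators are named if called or among the 3 largest differences of their class, and Hps4 was added with its values known. Members, lists and tests were chosen with earlier results of these data known. The code was checked on simulated data. Only 2 or 3 arrays a stage limit the precision. Alternatives changed the pseudocount, filter, scaling, probe set rule, variance model and arrays.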

Additional observations from a re-analysis of the deposited data

How the results depend on the processing

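The 1 Rab gene called higher from MKP to MK6 became 0 under a common median, with the 2 stages alone, with beta-actin ratios in the fit (0 of all genes called) and without MK6 replicates 1 and 3 together, an alternative chosen after seeing the data. It became 8, with 3 called lower, under array weights, where 27.5% of all genes were called and where MK6 replicate 3, with the highest beta-actin ratio, had the largest weight (2.38). Without MK6 replicates 2 and 3 together it became 3, with 1 lower (20.5% of all genes), Rab14 not among them. Leaving out each array in turn gave 0 to 2 called higher and 0 called lower. The count was 0 without MKP replicate 1, MKP replicate 2 or MK6 replicate 3, where the share of all genes called went from 5.69% to 0.0319%, 0.223% and 1.56%, and 2 without MK6 replicate 1 or 2 (6.09% and 11.6%). The medians then ran from 0.21 to 0.42 for MK6 minus MKP, -0.037 to 0.18 for MK3 minus MKP, -0.093 to 0.12 for MK4 minus MK3 and -0.021 to 0.17 for MK6 minus MK4, and the last was -0.030 without MK6 replicates 1 and 3. Array weights called 1 Rab gene higher and 1 lower from MK4 to MK6 (5.54% of all genes) and 7 in the F test (18.5%), and the 2 stages alone called 1 higher from MKP to MK3 (2.21%). The 5 regulators and effectors called higher became 17, with 3 lower, under array weights, 1 with no filter or without the variance trend, 2 with the 2 stages alone, 4 with 5 lower without MK6 replicates 2 and 3, and 0 under a common median, with beta-actin ratios in the fit or without MK6 replicates 1 and 3. Over all genes, 3.38% were called with no filter and 4.13% without the variance trend. With the 2 stages alone it was 4.29%, and under a common median 4.12%. Leaving out each array gave 0 to 5 regulators and effectors higher (0 to 6 on probe sets chosen anew) and 0 to 1 lower. The cause was not tested.

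Fits without an array kept the filter and probe sets chosen on all 9 arrays. In a first version both were chosen anew on the remaining arrays, and this was changed after Rab14's values had been seen. Both versions are kept, and the counts of Rab genes called and their ranges are the same in both, but without MK6 replicates 2 and 3 the Rab14 difference was 0.79 (adjusted p 0.065) as used and 0.31 (0.39) on the probe sets chosen anew. Rab14 was called in 19 of 33 alternatives, with differences from 0.31 to 1.27 and adjusted p from 0.00075 to 0.49. The 33 count the fits without an array in both versions. They also include fits without an MK3 or MK4 array, which left the difference unchanged, so the 19 are not separate pieces of support. Under the mean of a gene's probe sets the 1 call was Rab34. Of the 6 largest rises and 6 largest falls, Rab21 turned to 0.038 under that mean and Rab5b to 0.028 without MK6 replicates 2 and 3, neither called. Rab38, with a difference near 0, ran from -1.44 to 0.70. The lowest value came with MK6 replicate 1 as the only MK6 array. No paired analysis was possible because only the MK6 titles carry replicate numbers, so stages share none.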
